A study of Mus musculus with 4 samples.

Results

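The adenylyl cyclase genes, which make cyclic AMP, and the phosphodiesterase genes, which break cyclic AMP and cyclic GMP down, were followed across 11 classes of nuclei from the mouse basal forebrain, taken from the posterior part of the substantia innominata. They were all genes whose symbols begin with Adcy or Pde and go on with a digit and whose gene IDs stood in the gene lists of all 4 libraries: 36 of 31899 shared genes, 10 of them Adcy and 26 Pde. The name pattern also takes in genes that encode no cyclic nucleotide phosphodiesterase enzyme, among them Pde4dip (myomegalin, a scaffold protein that binds PDE4D), Pde12 (an RNA-degrading enzyme of mitochondria), Pde6d (a chaperone of prenylated proteins) and Pde6g and Pde6h (inhibitory subunits of the photoreceptor enzyme). Of the 36 genes, 28 passed the filter on low counts of the comparison between classes. The tissue was microdissected from wild-type mice aged 8 weeks, and single-nucleus RNA was profiled in 2 libraries from males and 2 from age-matched females. The stated aim was to quantify how neurons there differ between males and females. No label gave the number of animals behind a library or said that libraries came from separate animals, so every p-value below rests on these libraries. For class comparisons it measures how far class differences vary from library to library, pooled over the 11 classes with the library as a block. For sex it measures the spread between libraries within a class.

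Cyclic AMP is formed by membrane cyclases that stimulatory and inhibitory G proteins switch on and off, and it acts mainly through protein kinase A, Epac exchange factors and cyclic nucleotide-gated channels. Phosphodiesterases end the signal, and the families differ in substrate and in control: PDE1 enzymes are switched on by calcium and calmodulin, PDE4, PDE7 and PDE8 act on cyclic AMP, PDE5, PDE6 and PDE9 act on cyclic GMP, and PDE2, PDE3, PDE10 and PDE11 act on both. In the striatum, projection neurons that carry the dopamine receptor Drd1 or Drd2 use Adcy5 as their main cyclase and are known for high PDE10A and PDE1B.

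Nuclei were classed from raw counts of unique molecular identifiers (UMIs) of marker genes. GABAergic nuclei (Gad1 or Gad2) were split into those with Drd1, Drd2, Tshz1 or Sst and the rest, called other Gad here. The remaining classes were glutamatergic, cholinergic, astrocyte, oligodendrocyte, oligodendrocyte precursor (OPC) and microglial. The other Gad class is a mixture that also holds any nucleus of the 4 split types with too few UMIs of its marker. The classes held between 154 nuclei (Sst) and 11712 (other Gad) over the 4 libraries. Female 1 had 19 Drd1 nuclei and 6 Sst nuclei, and its Sst nuclei were left out of the fit because a class sum needed at least 10. Of 4 Drd2-type markers, 4 were highest in the Drd2 class. The same held for 3 of 3 Tshz1-type, 4 of 4 cholinergic, 5 of 5 astrocyte, 4 of 4 oligodendrocyte, 4 of 4 OPC and 4 of 4 microglial markers, but for only 1 of 4 Drd1-type markers (Tac1) and 1 of 3 Sst-type markers. The female libraries were shallower, with 53098268 and 53679351 UMIs in all against 158132452 and 144035342 in the males, and the classing rule left 47.7% and 46.2% of their kept nuclei in no class against 19.6% and 20.8%. They also differed from the male libraries in the software version named in the file headers. Sex therefore cannot be told apart from depth and software version. Shared cell barcodes numbered 23 between the male libraries and 35 between the female libraries, and 0 across the sexes.

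Levels are given as CPM (the UMI count of a gene scaled to the total of its class sum, with TMM factors), always in the order male 1, male 2, female 1, female 2. Nuclear reads fall on introns, and the members' genes span from 5896 to 1503514 bases, so levels were compared between classes and never between genes. In these bulk sums, fewer expressing nuclei and less RNA per nucleus cannot be told apart. Female 1 stood apart for several members: in other Gad nuclei 5 of 28 members were over 2 times the median of the other libraries (Pde1b, Adcy10, Pde8a, Pde1c and Pde6a), and Pde2a was at 0.118 of it, while the other 22 lay between 0.861 and 1.49 times. The gene list used for female 1 alone also held Gm45837, a protein-coding gene that overlaps Pde2a on the same strand and had 10 UMIs in that library; whether the longer list lowered Pde2a was not tested.

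The promoters of 7 members are shown because the class differences described below turn on these genes: Adcy5, Pde1b, Pde1c and Pde7b in the Drd1 and Drd2 classes, Pde10a in the Drd2 and cholinergic classes, and Pde8a and Pde4b in oligodendrocytes. They come from RefSeq (build GRCm38.p6), which had 52 promoter windows for 27 of the 36 members; 9 members had none and were not used here. Each line gives the 250 bases before the most upstream start that this RefSeq list held for the gene, 5′ to 3′ on its own strand. In the GENCODE vM21 annotation 4 of these genes begin further upstream, so the windows shown lie inside them. They are Pde4b (from chr4:102087543), Pde10a (chr17:8525372), Pde1c (chr6:56569103, minus strand) and Pde7b (chr10:20725078, minus strand). Capitals mark GGGCGG boxes, the core bound by Sp factors, and TGACG, the core of the cyclic AMP response element, each on either strand (CCGCCC and CGTCA).
Adcy5 (chr16:35154614-35154863, plus strand): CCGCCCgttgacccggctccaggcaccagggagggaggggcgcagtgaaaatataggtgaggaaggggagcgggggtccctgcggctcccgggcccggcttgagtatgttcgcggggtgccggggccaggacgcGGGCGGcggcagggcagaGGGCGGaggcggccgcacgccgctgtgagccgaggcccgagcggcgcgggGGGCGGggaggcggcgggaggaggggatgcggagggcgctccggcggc
Pde1b (chr15:103502784-103503033, plus strand): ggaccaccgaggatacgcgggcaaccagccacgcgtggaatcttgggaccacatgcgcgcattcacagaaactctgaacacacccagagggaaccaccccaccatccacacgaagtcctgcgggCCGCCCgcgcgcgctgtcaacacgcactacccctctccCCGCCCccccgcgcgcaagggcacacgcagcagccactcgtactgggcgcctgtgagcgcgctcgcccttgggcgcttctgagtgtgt
Pde1c (chr6:56369635-56369884, minus strand): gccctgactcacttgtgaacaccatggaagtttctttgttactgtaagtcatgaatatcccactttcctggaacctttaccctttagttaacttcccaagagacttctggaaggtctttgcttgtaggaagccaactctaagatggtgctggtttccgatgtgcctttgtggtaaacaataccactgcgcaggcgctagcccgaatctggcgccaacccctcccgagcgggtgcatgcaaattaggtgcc
Pde7b (chr10:20548329-20548578, minus strand): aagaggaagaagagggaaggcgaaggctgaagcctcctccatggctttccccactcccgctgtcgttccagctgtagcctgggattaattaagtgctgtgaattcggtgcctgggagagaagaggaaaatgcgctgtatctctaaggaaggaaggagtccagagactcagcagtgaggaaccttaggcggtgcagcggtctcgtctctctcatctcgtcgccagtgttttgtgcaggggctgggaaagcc
Pde10a (chr17:8801495-8801744, plus strand): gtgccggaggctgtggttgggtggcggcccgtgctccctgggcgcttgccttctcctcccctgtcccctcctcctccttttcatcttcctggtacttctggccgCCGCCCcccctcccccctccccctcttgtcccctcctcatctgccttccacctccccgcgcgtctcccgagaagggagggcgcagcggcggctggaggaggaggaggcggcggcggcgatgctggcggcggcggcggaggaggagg
Pde8a (chr7:81213015-81213264, plus strand): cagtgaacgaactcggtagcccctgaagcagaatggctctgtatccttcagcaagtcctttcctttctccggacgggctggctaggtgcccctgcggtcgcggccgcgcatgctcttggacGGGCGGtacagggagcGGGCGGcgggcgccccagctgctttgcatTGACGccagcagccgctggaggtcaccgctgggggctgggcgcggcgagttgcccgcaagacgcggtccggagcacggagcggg
Pde4b (chr4:102421305-102421554, plus strand): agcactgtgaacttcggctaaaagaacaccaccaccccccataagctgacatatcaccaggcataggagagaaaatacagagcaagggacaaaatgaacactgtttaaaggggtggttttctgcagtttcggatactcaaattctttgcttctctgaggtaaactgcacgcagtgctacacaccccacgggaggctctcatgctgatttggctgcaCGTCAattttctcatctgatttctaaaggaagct
Adcy5 held 32 CG dinucleotides and 4 GGGCGG boxes, Pde8a 27 and 2, Pde1b 26 and 2, and Pde10a 21 and 1. Pde7b held 10 CG dinucleotides, Pde1c 7 and Pde4b 5, and these 3 windows held no GGGCGG box. The median over all 32851 RefSeq windows was 6 CG dinucleotides. The full response element TGACGTCA was in 0 of 52 member windows and in 1.55% of all windows; TGACG, which that element contains, was in 13.5% against 17.8%, and GGGCGG in 34.6% against 32.7%. A match of letters is a description of the window and not a binding site.

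Every one of the 28 tested members differed in at least 1 of 12 comparisons between classes at an adjusted p under 0.05 (edgeR quasi-likelihood test over 13012 genes, Benjamini-Hochberg adjusted, library as a block). In a single comparison, from 1.74% (Sst) to 65.6% (oligodendrocytes against other Gad) of all genes passed. The share of all genes that passed in at least 1 comparison was not counted. Of 160 differences called for members, 150 had the same direction in every library. The Drd2 class held the highest mean level for 12 of the 28 members, the cholinergic class for 4 (Adcy1, Pde3a, Pde4dip and Pde10a) and oligodendrocytes for 3 (Adcy10, Pde4b and Pde8a). Microglia were highest for Adcy7 and Pde3b, and Drd1 nuclei for Pde1a. A highest mean is a rank and not a test. The 12 take in Pde7a, whose highest class mean was 1.61 times its lowest, and Pde6a, at 11.4 CPM. They also take in Pde1c, for which the test did not tell Drd1 and Drd2 nuclei apart. How often all genes kept their direction in every library, or were highest in each class, was not counted.

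**Figure D1:**
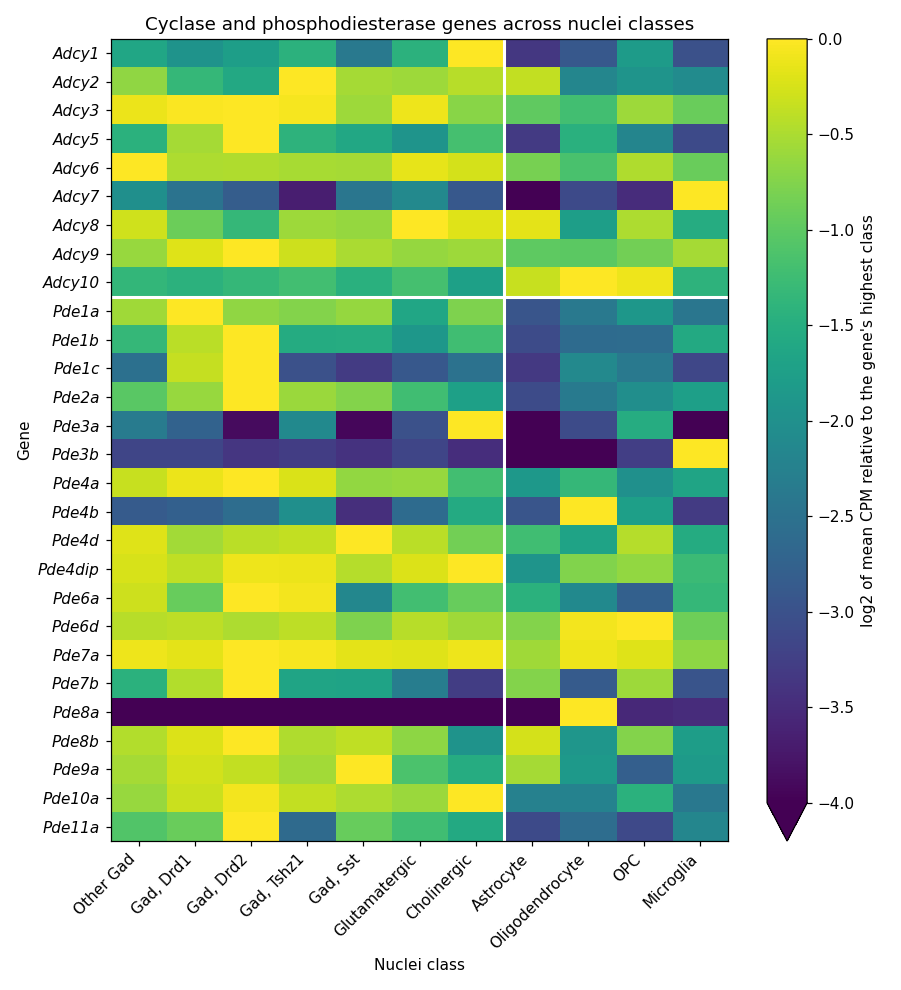
Each row is 1 of the 28 tested genes and each column a class of nuclei; color gives the log2 of the mean CPM over libraries relative to the gene's highest class (0, yellow), with values under -4 drawn as -4. In the Drd2 column 12 genes had their highest mean, some of them close to other classes, while Pde8a and Pde3b were far below their highest class nearly everywhere else.

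Members of this group differed between every pair of neuronal classes compared, most often in Drd2 and cholinergic nuclei. Against other Gad nuclei, 10 members were higher and 4 lower in Drd2 nuclei, where 11.8% of all genes passed the test, 6.22% higher and 5.57% lower. In Drd1 nuclei 6 were higher and 4 lower, where 3.48% of all genes passed, 1.72% higher and 1.76% lower. The members' median log2 difference was 0.12 in Drd2 nuclei, beside -0.06 over all genes, and 0.01 in Drd1 nuclei, also beside -0.06. Between the 2 classes directly, 1 member was higher in Drd1 and 3 were higher in Drd2 nuclei, beside 2.14% of all genes (0.515% and 1.63%). In Tshz1 nuclei 3 were higher and 3 lower (6.59% of all genes, 3.79% higher and 2.8% lower), and in Sst nuclei 1 was higher and 1 lower (1.74%, 0.999% higher and 0.745% lower). Glutamatergic nuclei had 1 higher and 6 lower (8.35%, 4.37% higher and 3.99% lower), and cholinergic nuclei 4 higher and 8 lower (23.3%, 10.6% higher and 12.7% lower). Without the library term fewer genes passed in all: 0 members and 0.0769% of genes in Drd1 nuclei, 6 and 1.67% in Drd2, 1 and 1.15% in Tshz1, 0 and 0.346% in Sst, 1 and 2.17% in glutamatergic and 9 and 9.38% in cholinergic nuclei (Pde10a lost, adjusted p = 0.0759), and 0 and 0.115% between Drd1 and Drd2. Drd1, Drd2 and cholinergic nuclei were also deeper per nucleus, with median UMIs of 6325.5 to 14769, 6897 to 16016 and 7490.5 to 20420.5 over libraries against 5830 to 12110 in other Gad nuclei. In an alternative, nuclei with at least 3000 UMIs were thinned to 3000 and classed anew, and the rest were left out. Of the kept nuclei of female 2, 6334 of 10581 reached that depth. Other Gad nuclei of male 1 at that depth numbered 3167 before thinning and 1572 after. In that set 12 of 24 tested members passed in cholinergic nuclei (14.2% of genes) and 7 of 24 in Drd2 nuclei (2.52%). Thinned Drd1 nuclei came to 6, 4, 4 and 10 and rested on 1 sum, and 6 members of that comparison (Adcy5, Pde1b, Pde1c, Pde2a, Pde3a and Pde7b) turned direction.

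Of the membrane cyclases, Adcy5, which inhibitory G proteins and calcium both hold down, was highest in the dopamine receptor classes. Its level was 79.9, 77.7, 116 and 70.5 CPM in other Gad nuclei, 175, 127, 252 and 91.5 CPM in Drd1 nuclei and 212, 199, 298 and 228 CPM in Drd2 nuclei. In every library it rose from other Gad to Drd1 to Drd2, and the Drd2 values lay above all other Gad values while the Drd1 values overlapped both. The log2 difference from other Gad was 1.42 ± 0.10 (SE) in Drd2 nuclei (edgeR adjusted p = 9.04e-15) and 0.84 ± 0.12 in Drd1 nuclei (adjusted p = 2.86e-06), and Drd1 was 0.58 below Drd2 (-0.58 ± 0.12, adjusted p = 0.00322). That last difference was lost without male 2 (adjusted p = 0.211) and without female 2 (adjusted p = 0.074). Adcy5 was also 0.37 lower on the log2 scale in glutamatergic nuclei (-0.37 ± 0.11, adjusted p = 0.0271), which was lost without female 1 (adjusted p = 0.24), male 1 or male 2. Its close relative Adcy6 did not pass in Drd1 or Drd2 nuclei and was lower in Tshz1 nuclei (-0.54 ± 0.15, adjusted p = 0.0165; 0.137 without male 1 and 0.325 without male 2).

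The calcium-stimulated cyclases Adcy1 and Adcy8 went other ways. Adcy1 stood at 35.0, 35.6, 44.3 and 35.3 CPM in other Gad nuclei and at 122, 99.3, 132 and 112 CPM in cholinergic nuclei. The lowest cholinergic value was above the highest value of every other class (50.8 CPM), and the log2 difference was 1.63 ± 0.09 (adjusted p = 1.03e-18). Glutamatergic nuclei were 0.30 ± 0.10 higher (adjusted p = 0.0366), but in 2 of 4 libraries only, and the call was lost without either male library. Adcy8 was 154, 151, 172 and 131 CPM in other Gad nuclei and 76.3, 78.3, 78.0 and 62.2 CPM in Drd2 nuclei, with no overlap (-1.02 ± 0.13, adjusted p = 3.85e-08). It was also lower in Drd1 nuclei (-0.54 ± 0.13, adjusted p = 0.00881), a call lost without male 1 (adjusted p = 0.285) or male 2 (0.134). Adcy3, best known from olfactory cilia, was lower in cholinergic nuclei (-0.55 ± 0.12, adjusted p = 0.000663), in 3 of 4 libraries, and the call was lost without male 2 (0.0636).

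Adcy2 and Adcy7 are stimulated by the G protein beta-gamma complex. Adcy2 separated the GABAergic types: it was 321, 317, 304 and 241 CPM in other Gad nuclei, 189, 173, 149 and 115 CPM in Drd2 nuclei and 511, 577, 394 and 396 CPM in Tshz1 nuclei. The 3 sets of values did not overlap. The log2 difference was -0.89 ± 0.15 in Drd2 nuclei (adjusted p = 1.05e-05), -0.61 ± 0.15 in Drd1 nuclei (adjusted p = 0.0113) and 0.69 ± 0.14 in Tshz1 nuclei (adjusted p = 0.000417). The Drd1 call was lost without male 1 (0.0636), male 2 (0.0827) or female 2 (0.0571). Adcy7 was 10.0, 10.7, 15.9 and 16.4 CPM in other Gad nuclei and was lower in Tshz1 (-1.16 ± 0.22, adjusted p = 0.000247; 0.173 with marker thresholds raised by 1 UMI), cholinergic (-0.79 ± 0.24, adjusted p = 0.0113) and Drd2 nuclei (-0.75 ± 0.21, adjusted p = 0.0126), the cholinergic call lost without female 1 (0.104) or female 2 (0.0934) and the Drd2 call without female 2 (0.0596), male 1 (0.0788) or male 2 (0.118). Adcy9, which responds little to forskolin, was higher in Drd2 nuclei (0.62 ± 0.11, adjusted p = 5.16e-05), at 188, 183, 195 and 194 CPM against 125, 125, 149 and 96.4 CPM, with no overlap. Adcy10, the soluble, bicarbonate-activated cyclase, passed in none of the comparisons among neurons.

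**Figure D2:**
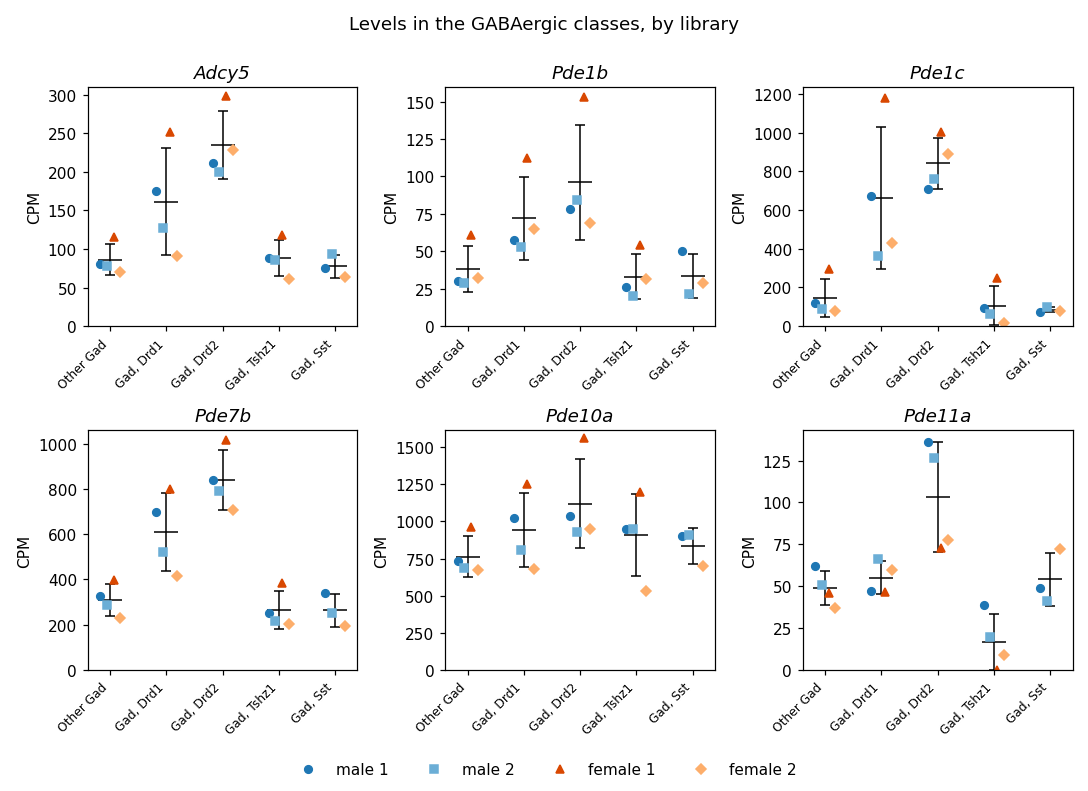
Points are CPM in each library for 6 genes in the 5 GABAergic classes, with bars for the mean and SD over libraries (Sst without female 1). Pde1c was 710 to 1003 CPM in Drd2 nuclei and 79.6 to 294 CPM in other Gad nuclei, while Pde11a was high in Drd2 nuclei and low in Tshz1 nuclei.

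The PDE1 family, which links calcium to cyclic nucleotide breakdown, held the largest difference among the neuronal classes. Pde1c was 117, 91.0, 294 and 79.6 CPM in other Gad nuclei, 675, 364, 1179 and 431 CPM in Drd1 nuclei and 710, 761, 1003 and 890 CPM in Drd2 nuclei. Neither dopamine receptor class overlapped other Gad nuclei, with log2 differences of 2.22 ± 0.27 (adjusted p = 1.95e-07) and 2.72 ± 0.27 (adjusted p = 9.2e-11). The 2 classes themselves were not told apart by the test (-0.50 ± 0.26, adjusted p = 0.464). Pde1b, an enzyme long known from striatal neurons, was 29.96, 29.1, 61.0 and 32.3 CPM in other Gad nuclei, 57.5, 52.6, 113 and 65.1 CPM in Drd1 nuclei and 78.0, 84.0, 153 and 68.7 CPM in Drd2 nuclei. In each library both classes were above other Gad, by 0.91 ± 0.13 (adjusted p = 1.01e-05) and 1.37 ± 0.11 (adjusted p = 2.98e-13). Pde1a took another order. It was 967, 970, 945 and 751 CPM in other Gad nuclei, 1352, 1198, 1510 and 1331 CPM in Drd1 nuclei and 992, 937, 763 and 726 CPM in Drd2 nuclei. All 4 Drd1 values were above all values of the other classes named, and Drd1 exceeded Drd2 by 0.65 ± 0.13 (adjusted p = 0.00208) and other Gad by 0.57 ± 0.13 (adjusted p = 0.00498; 0.0612 without female 2). Pde1a was lowest among neurons in the glutamatergic class, at 508, 525, 391 and 315 CPM, below every other Gad value (-1.06 ± 0.13, adjusted p = 2.26e-08), and Pde1b was lower there too (-0.41 ± 0.13, adjusted p = 0.0343), a call lost whichever library was left out.

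Among the enzymes that act on both nucleotides, Pde10a is the phosphodiesterase most associated with striatal projection neurons. Its level was 733, 683, 965 and 671 CPM in other Gad nuclei, 1026, 805, 1251 and 682 CPM in Drd1 nuclei, 1036, 928, 1564 and 948 CPM in Drd2 nuclei and 1251, 829, 1173 and 1428 CPM in cholinergic nuclei. Values of these classes overlapped between libraries, while within each library Drd2 and cholinergic nuclei were above other Gad. The log2 difference was 0.54 ± 0.15 in Drd2 nuclei (adjusted p = 0.00993; 0.0508 without male 1), 0.65 ± 0.15 in cholinergic nuclei (adjusted p = 0.000672) and 0.28 ± 0.15 in Drd1 nuclei (adjusted p = 0.442). The genes whose class means were most alike, by Pearson correlation of log2 CPM over the 11 classes, were Bsn (0.986), Trim46 (0.986), Hectd4 (0.980), Tsc22d1 (0.980) and Kcnq1ot1 (0.979), a description over classes that share libraries.

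Pde2a, which cyclic GMP stimulates, was 97.7, 96.9, 11.5 and 95.9 CPM in other Gad nuclei and 191, 175, 29.6 and 219 CPM in Drd2 nuclei. Female 1 was the low library in both classes, and Drd2 was the higher class in all 4 libraries, by 1.003 ± 0.11 (adjusted p = 2.62e-09). The difference was 0.99 ± 0.11 without female 1. Cholinergic nuclei were below other Gad nuclei for Pde2a in all 4 libraries (-0.71 ± 0.15, edgeR adjusted p = 0.000156). That call was lost without the library term (adjusted p = 0.754). Drd1 nuclei (154, 133, 0 and 113 CPM) and Tshz1 nuclei (127, 122, 11.3 and 147 CPM) were higher in 3 of 4 libraries, by 0.51 ± 0.12 (adjusted p = 0.00683) and 0.41 ± 0.12 (adjusted p = 0.0188), and both calls were lost without male 1 or male 2, the Tshz1 call also without female 2 (0.089). The Drd1 class was below Drd2 (-0.49 ± 0.13, adjusted p = 0.0299), which no fit that left out a library retained (adjusted p = 0.0533 without female 1). Pde11a was 61.7, 50.5, 45.9 and 36.8 CPM in other Gad nuclei, 136, 127, 72.6 and 77.7 CPM in Drd2 nuclei and 38.9, 19.7, 0 and 8.66 CPM in Tshz1 nuclei. Drd2 values lay above all other Gad values (1.14 ± 0.15, adjusted p = 2.77e-07), and Tshz1 was the lower class in every library (-1.09 ± 0.20, adjusted p = 0.000166). Drd1 was 1.05 below Drd2 (-1.05 ± 0.21, adjusted p = 0.0015), which was lost without male 1 (0.413) or male 2 (0.161). Drd1 nuclei of female 1 held 7 UMIs of Pde11a and 0 of Pde2a.

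Pde3a, which cyclic GMP inhibits, had the largest rise in cholinergic nuclei. It was 56.1, 56.6, 65.1 and 50.02 CPM in other Gad nuclei and 257, 327, 296 and 268 CPM in cholinergic nuclei, with no overlap (2.33 ± 0.14, adjusted p = 1.56e-18). In Drd2 nuclei it was 22.9, 20.9, 16.1 and 18.1 CPM, below every other Gad value (-1.47 ± 0.21, adjusted p = 7.24e-07). Pde3a was also lower in Sst (-1.48 ± 0.34, adjusted p = 0.0105), Drd1 (-0.94 ± 0.22, adjusted p = 0.00624) and glutamatergic nuclei (-0.92 ± 0.18, adjusted p = 0.000138). Each of these 3 calls was lost without male 1 and at least 1 other library, and in Drd1 nuclei female 1 went the other way, at 79.5 CPM against 65.1.

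**Figure D3:**
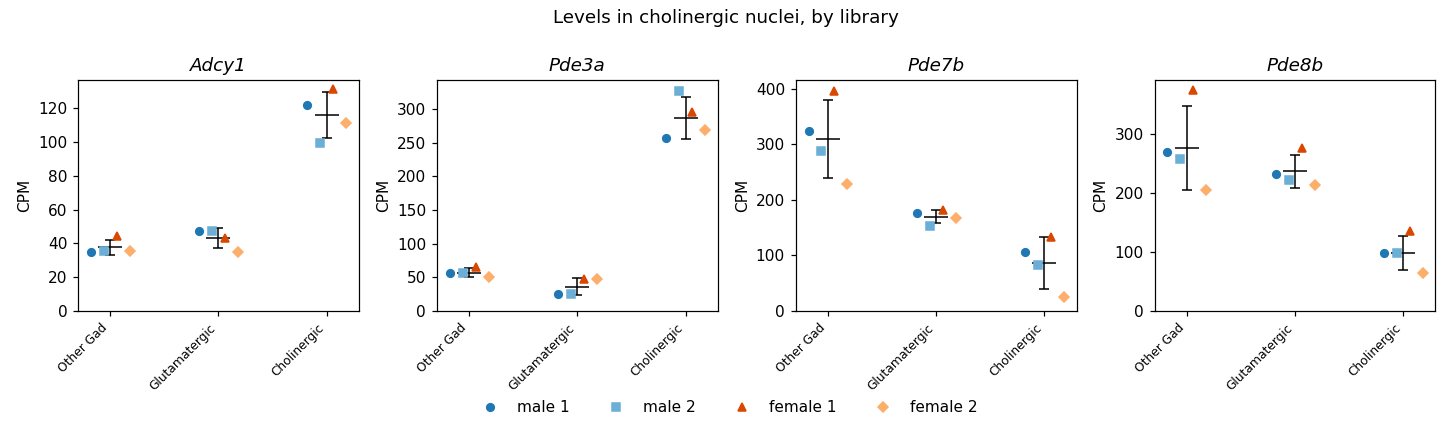
Points are CPM in each library for Adcy1, Pde3a, Pde7b and Pde8b in other Gad, glutamatergic and cholinergic nuclei, with bars for the mean and SD of 4 libraries. Cholinergic Adcy1 and Pde3a stood above both other classes in every library, at 99.3 to 132 and 257 to 327 CPM, and cholinergic Pde7b and Pde8b below them.

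Among the enzymes that break down cyclic AMP alone, Pde7b and Pde8b were lower in cholinergic nuclei and higher in Drd2 nuclei than in other Gad nuclei. Pde7b was 324, 288, 397 and 229 CPM in other Gad nuclei, 697, 522, 801 and 415 CPM in Drd1 nuclei, 840, 791, 1019 and 706 CPM in Drd2 nuclei and 105, 82.1, 134 and 24.7 CPM in cholinergic nuclei. Values of both dopamine receptor classes lay above, and cholinergic values below, every other Gad value. The log2 difference was 1.45 ± 0.15 in Drd2 (adjusted p = 3.05e-10), 0.97 ± 0.15 in Drd1 (adjusted p = 2.85e-05), -0.83 ± 0.15 in glutamatergic (adjusted p = 7.36e-05) and -1.85 ± 0.17 in cholinergic nuclei (adjusted p = 3.14e-12). Pde8b was 269, 258, 375 and 205 CPM in other Gad nuclei and 97.9, 97.4, 135 and 63.3 CPM in cholinergic nuclei, with no overlap (-1.49 ± 0.12, adjusted p = 1.4e-13). It was 0.46 ± 0.11 higher in Drd2 nuclei (adjusted p = 0.00239).

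Of the PDE4 genes, the targets of rolipram, Pde4b rose in cholinergic nuclei, at 2023, 2010, 2560 and 1768 CPM against 807, 802, 1108 and 684 CPM in other Gad (1.31 ± 0.15, adjusted p = 1.1e-09). All cholinergic values were above all other Gad values. It was also higher in each library in Tshz1 nuclei (1310, 1518, 2150 and 1078 CPM; 0.81 ± 0.15, adjusted p = 0.0001). Pde4a and Pde4d were lower in cholinergic nuclei, with log2 differences of -0.86 ± 0.11 (adjusted p = 5.12e-08) and -0.66 ± 0.09 (adjusted p = 8.44e-08). In Drd1 nuclei Pde4d was -0.32 ± 0.09 (adjusted p = 0.0344; 0.145 with median-ratio scaling, 0.496 without female 1, 0.523 without male 1 and 0.461 without male 2), and in Drd2 nuclei Pde4a was 0.35 ± 0.09 (adjusted p = 0.00961; 0.219 without male 1 and 0.108 without male 2). Pde9a, which acts on cyclic GMP, was 68.5, 65.6, 75.04 and 60.7 CPM in other Gad nuclei and 32.9, 31.8, 48.4 and 22.5 CPM in cholinergic nuclei, with no overlap (-1.004 ± 0.13, adjusted p = 3.09e-08). It was lower in glutamatergic nuclei (-0.58 ± 0.10, adjusted p = 3.03e-05; 0.0674 without male 1) and higher in the 3 libraries with Sst nuclei, at 87.0, 130 and 75.9 CPM (0.62 ± 0.14, adjusted p = 0.00663; 0.575 without male 2).

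Most members were lower in glial classes than in other Gad nuclei. In astrocytes 3 of 28 members were higher and 18 lower, beside 56.2% of all genes, 26.2% higher and 30% lower. In oligodendrocytes 4 were higher and 21 lower (65.6% of all genes, 29.5% higher and 36.1% lower), in OPCs 5 and 16 (47.4%, 21.7% and 25.7%), and in microglia 3 and 19 (54.8%, 23.9% and 30.9%). The members' median log2 differences were -0.96, -1.19, -0.35 and -1.02, beside -0.05, -0.05, -0.04 and -0.12 over all genes. With median-ratio scaling the median of all genes moved up by 0.19, 0.18, 0.17 and 0.26. Neuronal transcripts were also counted in these classes: Meg3, Rbfox3 and Snhg11, 3 neuronal genes chosen after their values were seen, stood at 23.1% to 28.8% of their other Gad level in astrocytes, 30.9% to 46.4% in oligodendrocytes, 21.7% to 32.5% in OPCs and 30.2% to 40.6% in microglia. Of the 28 members, 4 in astrocytes, 13 in oligodendrocytes, 2 in OPCs and 8 in microglia fell within those ranges, and 2 in each class fell below. The part of neuronal RNA in these levels was not tested. Adcy1, Adcy2, Adcy8, Pde1a, Pde4d, Pde7b, Pde8b and Pde10a in oligodendrocytes were among those at or under the range.

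Oligodendrocytes carried the greatest single contrast. Pde8a, a cyclic AMP enzyme of high affinity, was 505, 575, 424 and 261 CPM in oligodendrocytes and 6.06, 6.64, 19.1 and 8.02 CPM in other Gad nuclei, a log2 difference of 5.65 ± 0.20 (edgeR adjusted p = 2.78e-28). A UMI of it was found in 72.7%, 74.7%, 57.5% and 39.7% of oligodendrocytes and in 5.81%, 6.56%, 8.57% and 5.08% of other Gad nuclei, although the latter were deeper (median UMIs of 5830 to 12110 against 1504 to 2163). Pde4b was 6404, 6648, 7340 and 4074 CPM in oligodendrocytes, above every value of every other class (2.84 ± 0.16, adjusted p = 6.79e-21). OPCs had 37.0, 33.2, 52.8 and 28.6 CPM of Pde8a and 2025, 1862, 2182 and 1265 CPM of Pde4b. Both were lower there than in oligodendrocytes in every library, with log2 differences of -3.58 ± 0.26 (adjusted p = 6.5e-16) and -1.73 ± 0.15 (adjusted p = 1.42e-13), and higher than in other Gad nuclei (2.06 ± 0.38 and 1.11 ± 0.15).

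**Figure D4:**
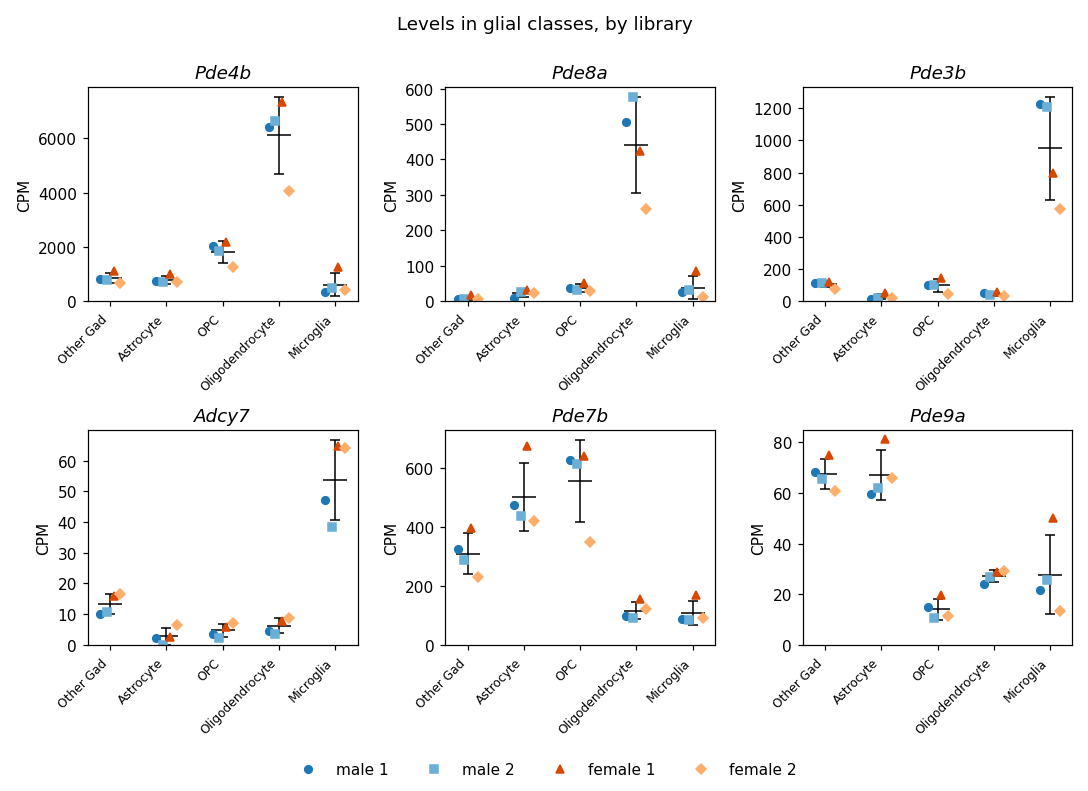
Points are CPM in each library for 6 genes in other Gad nuclei and the 4 glial classes, with bars for the mean and SD of 4 libraries. Oligodendrocytes stood out for Pde4b and Pde8a (261 to 575 CPM), microglia for Pde3b (575 to 1227 CPM) and Adcy7, and astrocytes and OPCs for Pde7b.

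Between the 2 stages of the oligodendrocyte lineage, 11 members were higher and 5 lower in OPCs, beside 34.1% of all genes, 18.2% higher and 15.9% lower. Pde7b was 625, 614, 639 and 348 CPM in OPCs and 96.6, 92.2, 157 and 121 CPM in oligodendrocytes, with no overlap (2.24 ± 0.16, adjusted p = 3.36e-16). Pde3a (1.55 ± 0.21, adjusted p = 3.82e-08), Adcy8 (1.26 ± 0.14, adjusted p = 4.56e-10) and Pde4d (1.22 ± 0.09, adjusted p = 1.33e-15) followed. The oligodendrocyte levels of Pde7b, Adcy8 and Pde4d were 37.7%, 35.9% and 35.7% of those in other Gad nuclei, within the range of the 3 neuronal genes there. Beside Pde8a and Pde4b, the members lower in OPCs were Pde9a (-1.003 ± 0.24, adjusted p = 0.000519), Adcy5 (-0.75 ± 0.17, adjusted p = 0.000266) and Pde4a (-0.63 ± 0.16, adjusted p = 0.00165). Adcy5 did not pass between oligodendrocytes and other Gad nuclei, with 87.0, 97.8, 99.1 and 57.0 CPM in oligodendrocytes (-0.01 ± 0.10, adjusted p = 0.951). Adcy10 was higher than in other Gad nuclei in oligodendrocytes (1.32 ± 0.17, adjusted p = 4.43e-09), OPCs (1.25 ± 0.26, adjusted p = 9.47e-05) and astrocytes (1.09 ± 0.27, adjusted p = 0.000685), on 3 to 97 UMIs a library.

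In microglia Pde3b, the PDE3 form known from insulin-responsive cells, was 1227, 1206, 799 and 575 CPM against 113, 115, 121 and 77.2 CPM in other Gad nuclei, with no overlap (3.15 ± 0.14, adjusted p = 1.13e-23). Adcy7, the cyclase typical of blood and immune cells, was 47.1, 38.4, 64.7 and 64.1 CPM against 10.0, 10.7, 15.9 and 16.4 CPM (2.01 ± 0.18, adjusted p = 2.41e-13). Pde8a was also higher (1.98 ± 0.43, edgeR adjusted p = 0.000134), at 25.4, 32.9, 85.5 and 12.3 CPM. The 4 oligodendrocyte markers summed to 288, 387, 1381 and 522 CPM in the same microglial sums. Female 1 was highest in both, while female 2 was next in the markers and lowest in Pde8a. The median of the marker sums was 455 CPM in microglia, 329 in OPCs and 163 in other Gad nuclei against 9637 in oligodendrocytes. The part of oligodendrocyte RNA in the Pde8a values was not tested. In astrocytes Pde7b was the clearest rise, at 474, 438, 673 and 422 CPM, above all other Gad values (0.69 ± 0.15, adjusted p = 0.000128). Pde8a was 1.21 ± 0.46 higher there (adjusted p = 0.0242), lost without male 2 (0.0901) or female 2 (0.0639). Pde8b, Pde9a, Adcy2 and Adcy8 stood at 115%, 99.5%, 123% and 109% of their other Gad means in astrocytes and did not pass the test.

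Pde6a, Pde6b, Pde6c, Pde6g and Pde6h encode subunits of the photoreceptor enzyme, with few UMIs here. Pde6a was at most 11.4 CPM as a class mean, carried by female 1 (21.1 CPM against 4.42 to 6.17 in other Gad nuclei). Pde6d had class means of 24.1 to 44.3 CPM and was 0.35 ± 0.11 higher in oligodendrocytes (adjusted p = 0.00322). Pde7a was even across neurons, with class means of 109 to 125 CPM, and was lower in astrocytes (-0.49 ± 0.11, adjusted p = 0.000202) and microglia (-0.62 ± 0.12, adjusted p = 2.24e-05). Pde4dip was lower in all 4 glial classes, most in astrocytes (-1.74 ± 0.12, adjusted p = 1.29e-17). The 8 members that did not pass the filter were Adcy4, Pde12, Pde4c, Pde5a, Pde6b, Pde6c, Pde6g and Pde6h, with highest class means between 0.296 CPM (Adcy4, 6 UMIs in all) and 10.3 CPM (Pde5a, 410 UMIs).

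Genes on either side of the cyclases and phosphodiesterases were read from 5 lists with 51 genes, 47 of them tested. Of all genes, 6.22% were higher and 5.57% lower in Drd2 nuclei, and 1.72% and 1.76% in Drd1 nuclei. The shares were 3.79% and 2.8% in Tshz1 nuclei, 10.6% and 12.7% in cholinergic nuclei and 29.5% and 36.1% in oligodendrocytes. Of 9 G protein genes, 2 were higher and 1 lower in Drd2 nuclei and 2 higher in Drd1 nuclei. Gnal, the stimulatory subunit of the striatum, was 403, 393, 708 and 378 CPM in Drd2 nuclei against 197, 195, 332 and 223 CPM in other Gad (0.99 ± 0.10, adjusted p = 7.02e-10), and its partner Gng7 rose by 1.68 ± 0.10 (adjusted p = 2.55e-16). Of 10 protein kinase A genes, 3 were higher and 1 lower in both classes: Ppp1r1b (DARPP-32) by 1.95 ± 0.21 in Drd2 nuclei, the regulatory subunit Prkar2b by 0.64 ± 0.09 and the inhibitor Pkig by 0.34 ± 0.09, with the inhibitor Pkib at -0.96 ± 0.21. Of 10 A-kinase anchors, 2 were higher and 2 lower in Drd2 nuclei, led by Akap5 (1.20 ± 0.19, adjusted p = 5.79e-06). In cholinergic nuclei Gng7 was -1.67 ± 0.18, Prkar2b -1.05 ± 0.12 and Akap5 -1.43 ± 0.32. Of 7 tested cyclic GMP genes, 2 were higher in Drd2 and 2 in Tshz1 nuclei, the guanylyl cyclase subunits Gucy1a1 (1.30 ± 0.14 and 1.88 ± 0.13) and Gucy1b1 (0.62 ± 0.09 and 0.67 ± 0.09). In cholinergic nuclei 3 G protein genes were higher and 2 lower, and 2 protein kinase A genes were higher and 2 lower. In oligodendrocytes 0 protein kinase A genes were higher and 8 lower, and 7 of 7 cyclic GMP genes were lower. The nitric oxide synthase Nos1 was higher in cholinergic (2.29 ± 0.15) and glutamatergic nuclei (2.07 ± 0.14). Of 11 tested effectors other than protein kinase A, 1 was higher and 2 were lower in Drd2 nuclei; Rapgef3 (Epac1) was 147, 149, 146 and 116 CPM in astrocytes against 11.05, 11.5, 16.3 and 14.4 CPM in other Gad nuclei (3.42 ± 0.14, adjusted p = 2.16e-25).

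No member differed between the sexes at an adjusted p under 0.05 in any of the 5 classes tested with the 4 libraries. In all Gad nuclei 0 of 33 tested members passed (edgeR), beside 0.00545% of all genes, and 4 had an unadjusted p under 0.05. The counts were 0 of 29 in Drd2 nuclei (0.0624% of genes; 3 at an unadjusted p under 0.05), 0 of 30 in glutamatergic nuclei (0.0631%; 3), 0 of 24 in astrocytes (0.0555%; 3) and 0 of 29 in oligodendrocytes (0.023%; 2). DESeq2 also called 0 members in each, beside 4.91% of all genes in all Gad nuclei, 0.624% in Drd2 nuclei, 1.41% in glutamatergic nuclei, 0.333% in astrocytes and 1.58% in oligodendrocytes. The Drd1 class was not tested for sex, because female 1 held 19 nuclei and 30 were asked for. Pde11a was 60.5 and 51.6 CPM in the males' Gad nuclei and 41.7 and 38.3 in the females' (scaled over these 4 sums; 0.49 ± 0.14, adjusted p = 0.287), and Adcy7 was 8.98 and 9.40 against 13.7 and 15.6 (-0.67 ± 0.17, adjusted p = 0.286). In both genes the sexes did not overlap. Both males lay on one side of both females for 15 of 33 members, beside 52.6% of all genes. The counts were 14 of 29 in Drd2 nuclei (44.7% of all genes), 11 of 30 in glutamatergic nuclei (46.5%), 11 of 24 in astrocytes (39.4%) and 13 of 29 in oligodendrocytes (43.6%). The size of a class difference was compared between the sexes by an interaction term: 0 members passed for Drd1 against Drd2 (0.0307% of all genes) or for glutamatergic against other Gad nuclei (0.0231%), while Pde4dip passed for astrocytes (1.16%) and Pde8a for oligodendrocytes (1.82%).

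**Figure D5:**
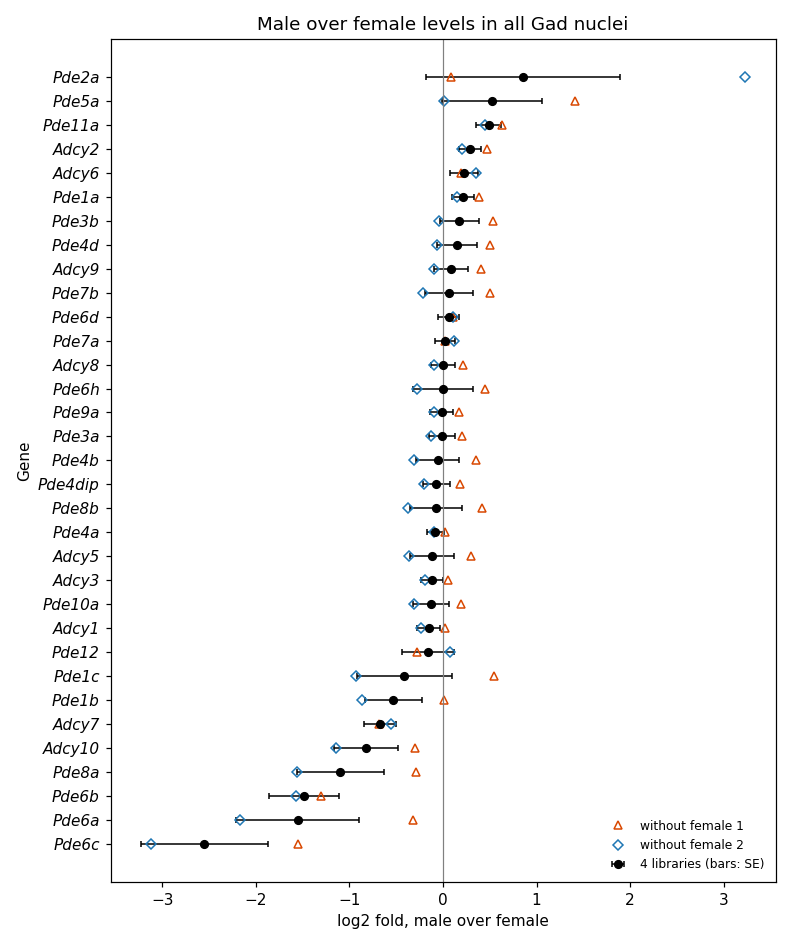
Filled points give the log2 fold of males over females in all Gad nuclei for 33 tested genes, with bars for the SE, and open symbols the same fold without female 1 or without female 2. For Pde1c, Pde8b and Adcy5, among others, the 2 open symbols fell on opposite sides of 0.

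Which female library stood for the females decided the direction for Pde1c, Pde8b, Adcy5 and Pde10a in all Gad nuclei. Without female 1, 21 of 35 tested members passed in all Gad nuclei, 19 higher and 2 lower in males, beside 51.1% of all genes. Without female 2, 23 of 35 passed, 6 higher and 17 lower, beside 56.3%. Pde1c was 0.54 ± 0.05 without female 1 and -0.93 ± 0.05 without female 2, Pde8b 0.42 ± 0.04 and -0.38 ± 0.04, Adcy5 0.30 ± 0.05 and -0.37 ± 0.05, and Pde10a 0.19 ± 0.04 and -0.31 ± 0.04. Pde11a kept its direction in both (0.63 ± 0.06 and 0.45 ± 0.08). Without female 1, 5 of 30 members passed in Drd2 nuclei (4.96% of genes), 6 of 31 in glutamatergic nuclei (15.4%), 2 of 24 in astrocytes (6.19%) and 9 of 29 in oligodendrocytes (34.6%). Without female 2, the counts were 13 of 30 (15%), 8 of 31 (17%), 7 of 26 (14.8%) and 9 of 30 (30.4%). Pde2a was 0.09 ± 0.05 without female 1 and 3.23 ± 0.08 without female 2. In those fits the lone female library is assumed to vary as the males did.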

How the data were processed

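Single nuclei were profiled with 10x Genomics 3′ chemistry, and per the labels' protocols the libraries were sequenced on an Illumina NovaSeq. The deposited matrices hold whole UMI counts per gene and barcode. Build mm10, Seurat 5 and Cell Ranger 6.0.1 appear in the submitters' processing notes; the matrix headers name Cell Ranger 9.0.1 for the male libraries, 7.0.0 for female 1 and 7.2.0 for female 2, and no source used here gives the settings. Whether the authors removed doublets before deposit is not stated, and no doublet caller was run.

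Nuclei with 500 to 8000 detected genes and under 5% mitochondrial UMIs were kept. Classes needed 2 UMIs over their marker genes: Chat and Slc5a7 (taken first), then Gad1 and Gad2, Slc17a6 and Slc17a7, Gja1 and Aqp4, Mog and Mag, Pdgfra and Cspg4, Inpp5d and Csf1r. Nuclei in 2 or more classes (5.16% to 13.2%) were dropped, which also removes many doublets of different types. Gad nuclei were split at 2 UMIs of Drd1 or Drd2 or 3 of Tshz1 or Sst; those that passed several splits were left out, with keeping them as an alternative. Counts were summed per library and class, giving 43 sums, and tested in 1 edgeR 4.0.16 quasi-likelihood fit (R 4.3.3, TMM scaling, filterByExpr, library as a block) with Benjamini-Hochberg adjustment over 13012 genes. CPM are from edgeR on these sums, after TMM scaling. Sex was tested per class on 2 against 2 sums, without a block, in classes with 30 nuclei in every library. DESeq2 1.42.0 was an alternative, beside other scaling, no low-count filter, no library term, class pairs fitted alone, raised marker thresholds, thinning to 3000 UMIs, dropping the 10% deepest nuclei and leaving out each library. Thinning took only nuclei with at least 3000 UMIs and classed them anew on the thinned counts. The count test was run on simulated data for Drd1 against Drd2 nuclei. It recovered 19 of 50 genes set 2-fold lower, 19 of 50 set 2-fold higher, 40 of 50 set 4-fold lower and 50 of 50 set 4-fold higher. Among 11679 genes there were 7 false calls. In that simulation, 2-fold differences between these classes were often missed.

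The members follow from gene names, but they and the lists were chosen with earlier results of these data known. All members are accounted for. For each comparison genes were chosen from the called members with the largest changes, up to 10 in each direction. Pde10a, Pde1b, Pde1c, Pde2a, Pde4b, Pde4d, Pde7b, Pde8b, Adcy1, Adcy2, Adcy5, Adcy8 and Adcy9 were added. So were the 5 genes most like Pde10a and up to 3 called genes a list. Not every gene so chosen is described for every comparison, for example Pde2a in astrocytes (-2.06 ± 0.22). Coordinates of genes are GENCODE vM21.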

Additional observations from a re-analysis of the deposited data

Results flagged for a closer look

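Interactions of class and sex were tested for 4 contrasts, and 2 members differed between males and females in the size of a class difference (edgeR quasi-likelihood, Benjamini-Hochberg adjusted over all genes tested; 1.82% of all genes passed for oligodendrocytes and 1.16% for astrocytes). The log2 difference of Pde8a between oligodendrocytes and other Gad nuclei was 1.67 greater in males (interaction 1.669, SE 0.22, adjusted p = 8.83e-07), at 6.40 in males and 4.73 in females. Pde8a was 505 and 575 CPM in the males' oligodendrocytes and 424 and 261 CPM in the females', and 6.06 and 6.64 against 19.1 and 8.02 CPM in other Gad nuclei. The direction held in both sexes, and the other Gad level of female 1 was the highest of the 4.

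Pde4dip was lower in astrocytes than in other Gad nuclei in both sexes, by -2.13 in males and -1.39 in females on the log2 scale (interaction -0.7445, SE 0.20, adjusted p = 0.0434). Its astrocyte level was 77.5 and 78.5 CPM in males and 136 and 147 CPM in females. Neuronal transcripts in astrocytes moved the same way, with Rbfox3 at 58.4 and 64.4 CPM in males and 128 and 127 CPM in females and Meg3 at 2227 and 1543 against 3665 and 3783 CPM. The Pde4dip level in astrocytes was 31.1% of that in other Gad nuclei, beside 23.1% to 28.8% for 3 neuronal genes, and the part of neuronal RNA in the result was not tested. Sex cannot be told apart from depth and software version in these libraries, and the part of either in the 2 results was not tested.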

How the results depend on the processing

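Of the results on single members, 125 pairs of a comparison and a called member chosen by size of change were followed. In every fit that left out 1 library 99 of 125 passed, and 7 of 125 turned direction, all with nuclei thinned to 3000 UMIs. There the Drd1 class came to 6, 4, 4 and 10 nuclei, so it rested on 1 sum: against other Gad nuclei Adcy5 gave -8.70 (a fit on a count of 0, which is no fold), Pde1b -0.48, Pde1c -1.35, Pde2a -0.16, Pde3a 0.0752 and Pde7b -0.85, and for Drd2 nuclei Pde8b gave -0.0403. Thinning left 0 members passing between Drd1 and Drd2, 1 in Drd1, 7 in Drd2, 3 in glutamatergic nuclei and 13 in OPCs (0.179%, 0.123%, 2.52%, 3.5% and 39.4% of all genes), left 12 of 24 in cholinergic and 5 of 24 in Tshz1 nuclei (14.2% and 5.42%), and gave no value for Sst nuclei.

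Without the library term (no replicate block), 0 members passed between Drd1 and Drd2, 0 in Drd1, 6 in Drd2, 1 in Tshz1, 0 in Sst and 1 in glutamatergic nuclei, and 9 in cholinergic nuclei (0.115%, 0.0769%, 1.67%, 1.15%, 0.346%, 2.17% and 9.38% of all genes). Without a filter on low counts, 7 passed between Drd1 and Drd2 (1.75% of all genes). With each class fitted only beside other Gad, 16 passed in Drd1, 14 in glutamatergic, 5 in Sst and 10 in Tshz1 nuclei, beside 6.78%, 13.8%, 3.18% and 9.56% of all genes. With marker thresholds raised by 1 UMI, 6 passed in Drd1 and 1 in Sst nuclei (1.7% and 0.918% of all genes). Leaving out 1 library gave 1 to 4 members between Drd1 and Drd2, 5 to 10 in Drd1, 2 to 7 in glutamatergic and 1 to 2 in Sst nuclei. For sex it gave 0 to 23 members in all Gad, 0 to 7 in astrocytes, 0 to 13 in Drd2, 0 to 8 in glutamatergic and 0 to 9 in oligodendrocyte nuclei. With all 4 libraries, 2.14% (Drd1 against Drd2), 3.48% (Drd1), 8.35% (glutamatergic) and 1.74% (Sst) of all genes passed. The shares for class fits with 1 library left out are not given here, and those for sex without a female library stand above. The cause of the changes between settings was not tested for any of these.

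Male and female libraries share replicate numbers but no stated pairing: the differences between replicates 1 and 2 correlated by 0.116 between the sexes over 18345 genes in all Gad nuclei, with only 2 pairs. With the replicate number as a block, 0 members passed in each of the 5 sex comparisons, as without it. Depth per nucleus was lowest in microglia and oligodendrocytes, with a median of 1473 to 2062 and 1504 to 2163 UMIs over libraries. The tests used class sums, and in total the Sst and Drd1 classes held the fewest nuclei (6 to 54 and 19 to 155 a library).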
